A study of Homo sapiens with 4 samples.

Results

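Pancreatic lineage transcription factors are DNA-binding proteins that build and keep the identity of pancreatic cells. The 9 factors described here, PDX1, SOX9, GATA6, GATA2, FOXA1, FOXA2, KLF5, ELF3 and NR5A2, were taken by gene symbol from the 16878 genes listed in each expression table, and all 9 were found. The question was which of them PANC-1, a cell line grown from a human pancreatic tumor, expresses in Control, and how each changed after knockdown of SIRT1, an NAD-dependent protein deacetylase. RNA-seq covered 2 Control libraries and 2 libraries of PANC-1 that had received siRNA to SIRT1 (siSIRT1), taken at 48 h. The labels call the first group Control and do not say what it received. They do not say either whether the libraries of a group came from separate cultures, so p-values measure only the spread between libraries, which may be technical.

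In the embryo, PDX1, SOX9, the FOXA factors and GATA6 act in the progenitors of the pancreas, and the adult cell types keep different subsets of them. SOX9 stays on in duct cells, NR5A2 supports acinar cells, and PDX1 is kept high in insulin-producing beta cells. FOXA1 and FOXA2 are pioneer factors that open chromatin for other regulators, KLF5 and ELF3 control epithelial genes, and GATA2 is best known from blood and endothelial cells. In pancreatic cancer, GATA6 marks the better differentiated, classical tumors.

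The siRNA and the promoter windows of 3 changed members are shown here because they are the perturbing sequence and the regulatory sequence of genes whose transcripts moved. The siRNA strand is the one listed by the study, 5′ to 3′, with capitals on the bases that pair with the seed (bases 2 to 8) of the complementary strand. The promoters run from 250 bases before to 50 bases after the start site (RefSeq, GRCh38.p14), on the strand of the gene, with capitals on matches to the motifs searched.
siSIRT1 siRNA: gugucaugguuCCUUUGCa
ELF3 promoter, chr1:202010337-202010636, plus strand: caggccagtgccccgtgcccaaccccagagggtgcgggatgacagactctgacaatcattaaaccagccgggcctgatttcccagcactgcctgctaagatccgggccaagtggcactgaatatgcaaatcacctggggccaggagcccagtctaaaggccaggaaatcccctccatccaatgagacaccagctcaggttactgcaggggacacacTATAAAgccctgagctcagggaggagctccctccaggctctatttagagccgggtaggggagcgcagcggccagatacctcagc
FOXA1 promoter, chr14:37595200-37595499, minus strand: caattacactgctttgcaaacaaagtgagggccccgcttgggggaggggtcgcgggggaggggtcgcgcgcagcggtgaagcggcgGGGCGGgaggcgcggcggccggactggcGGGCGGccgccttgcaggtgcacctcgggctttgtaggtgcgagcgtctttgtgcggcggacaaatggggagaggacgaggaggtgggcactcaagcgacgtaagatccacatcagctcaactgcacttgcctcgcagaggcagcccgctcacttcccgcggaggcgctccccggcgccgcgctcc
GATA2 promoter, chr3:128493152-128493451, minus strand: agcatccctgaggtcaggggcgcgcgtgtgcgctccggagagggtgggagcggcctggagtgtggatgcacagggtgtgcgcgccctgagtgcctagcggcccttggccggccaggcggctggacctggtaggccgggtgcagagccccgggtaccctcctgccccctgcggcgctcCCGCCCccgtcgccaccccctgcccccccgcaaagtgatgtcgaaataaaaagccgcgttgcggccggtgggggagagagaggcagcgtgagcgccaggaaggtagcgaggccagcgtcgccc

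The 3 windows differed in composition. G and C made up 69.3% of the FOXA1 window and 72.3% of the GATA2 window, with observed to expected CpG ratios of 0.966 and 0.744. The ELF3 window had 59.0% G and C and a CpG ratio of 0.269, against medians of 65.3% and 0.844 for the promoters of the tested genes. Motifs were searched on both strands in the 6 members with a window (ELF3, FOXA1, GATA2, GATA6, KLF5 and NR5A2). The TATA box letters TATAAA were somewhere in the window of 3 of them, ELF3, KLF5 and NR5A2. The match began at base -34 from the start site in ELF3, but at -194 in KLF5 and -201 in NR5A2. At any position and on either strand, the letters were in 12% of all 27305 promoters and in 5.27% of the promoters of 9984 tested genes. The GC box GGGCGG of SP and KLF factors was in FOXA1 and GATA2, in 44.6% of all promoters and in 71.1% of those of tested genes. GATAA, read by GATA factors, was in NR5A2 alone among the 6, in 23.2% of all promoters and in 13% of those of tested genes. ACAATG, read by SOX factors, was in KLF5 alone, in 11% of all and in 5.75% of those of tested genes. In none of the 6 were TGTTTAC of forkhead factors (3.41% of all promoters and 2.21% of those of tested genes), CCGGAAG of ETS factors (10.7% and 19.9%), TAATTA of homeobox factors (4.98% and 1.69%) and CAAGGTCA of NR5A factors (1.33% and 0.791%). These matches describe letters, not binding.

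The siRNA matched the SIRT1 transcript at 1 place and had 0 full matches in the 9 members. The seed complement CCTTTGC was in the 3′ UTR of 2 members, SOX9 and GATA2, at 1 place each, and in 15.6% of the 3′ UTRs of 11930 tested genes. Those of SOX9 and GATA2 are 2029 and 1592 bases long, against a median of 1305.

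Expression was given as FPKM, fragments scaled to transcript length and to the mapped total, so that levels can be set side by side between genes. Depth was estimated from the values at 8620000 to 9010000 reads per library. SIRT1 read 10.46 and 10.25 FPKM in the Control pair, against 1.80 and 2.05 FPKM after knockdown, which left 18.6% of its Control level. By limma on log2(FPKM + 1), 37.1% of 12191 genes passed an adjusted p of 0.05, 24% as higher and 13.1% as lower in siSIRT1, and these shares are the background for the counts given later. Higher genes made up 64.8% of the calls on the values as deposited and 49.6% after median-of-ratios scaling.

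In Control, 5 of the 9 factors had a mean of at least 1 FPKM. SOX9 was the most abundant at 62.4 FPKM, followed by ELF3 at 26.1, FOXA2 at 26.1, GATA2 at 6.03 and FOXA1 at 1.45 FPKM. The other 4 lay below 1 FPKM, with GATA6 at 0.895, KLF5 at 0.715, NR5A2 at 0.455 and PDX1 at 0.09 FPKM. ELF3 and FOXA2 overlapped, and the libraries of every other neighboring pair in this order did not. GATA6 and KLF5 were barely apart, at 0.89 FPKM in the lower GATA6 library and 0.88 FPKM in the higher KLF5 library. These stand for about 28 and 26 reads, so the order of GATA6 and KLF5 is not settled. SOX9, a duct factor, stood at rank 1077 of the 16878 genes, and PDX1, a progenitor and beta cell factor, at rank 14516. SOX9, FOXA2, ELF3 and GATA2 together held 97.1% and 97.2% of the summed FPKM of the 9 factors in the Control pair, and 97.2% and 96.7% after knockdown. The sum went from 127 and 121 FPKM to 100.6 and 99.1 FPKM.

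**Figure D1:**
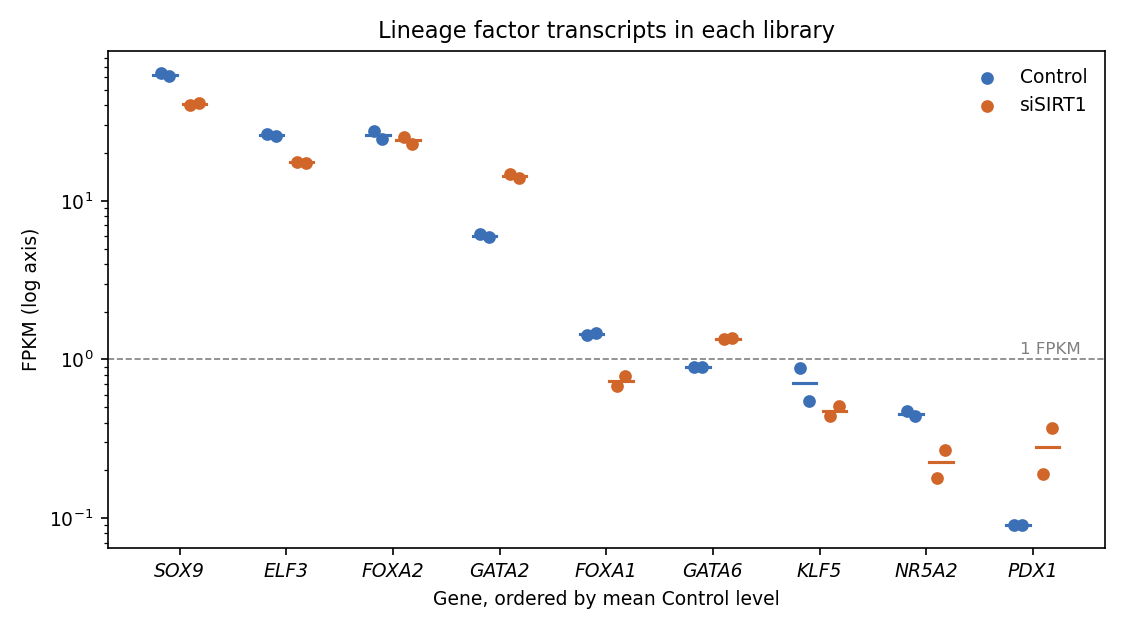
FPKM (log axis) of the 9 factors in each of the 2 Control and 2 siSIRT1 libraries (points), with a short bar at each group mean and a dashed line at 1 FPKM. SOX9, ELF3, FOXA2 and GATA2 lie far above the line in all 4 libraries, and only the points of FOXA2 overlap between the groups.

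After SIRT1 knockdown, SOX9, ELF3 and FOXA1 fell and GATA2 rose. These were 4 of the 6 factors that could be tested, beside 37.1% of all genes. FOXA2 and GATA6 did not pass, and KLF5, NR5A2 and PDX1 were under the filter, a mean of 1 FPKM over the 4 libraries. FOXA1 and GATA6 passed that filter only through the group in which they were higher. The groups did not overlap in 5 of the 6, beside 69% of all genes tested. The median log2 fold change of the 6 was -0.30, against 0.07 over all genes. With the study's own limits, a fold above 1.2 and p below 0.001 (taken here as unadjusted), SOX9, ELF3 and GATA2 passed, which is 3 of 6 beside 18.1% of all genes.

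SOX9 fell to 65.6% of its Control level. The Control libraries read 63.7 and 61.0 FPKM, and the siSIRT1 libraries 40.2 and 41.6 FPKM. Both siSIRT1 values were below both Control values. Mean FPKM was 62.4 ± 1.9 against 40.9 ± 0.97 (SD, n = 2 each), on about 1338 to 2216 reads per library. On the log2 scale the difference was -0.60 (SE 0.06), and its adjusted p was 0.00021 by limma. SOX9 stayed the most abundant of the 9, and its share of their summed FPKM went from 49.96% and 50.5% to 39.96% and 42.0%.

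ELF3, an ETS factor of epithelial cells, fell to 66.9% of Control. Its libraries read 26.4 and 25.8 FPKM before and 17.5 and 17.4 FPKM after knockdown, and the groups did not overlap. Mean FPKM was 26.1 ± 0.46 against 17.5 ± 0.092 (SD, n = 2 each). The log2 difference was -0.55 (SE 0.07), adjusted p 0.000565 by limma. ELF3 and FOXA2 overlapped in Control, and in siSIRT1 ELF3 lay below FOXA2 in both libraries.

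KLF5, a zinc finger factor of epithelial cells, was expressed weakly. Its Control libraries read 0.88 and 0.55 FPKM, and the siSIRT1 libraries 0.44 and 0.51 FPKM, on about 26, 16, 12 and 15 reads. The groups were separate, but the Control libraries differed more from each other than the nearest values of the groups did. Over the summed 42 and 27 reads, siSIRT1 was 0.658 of Control, with an exact 95% counting interval of 0.390 to 1.09. In the fit with no filter on low values, in which 21.5% of 16453 genes passed, its adjusted p was 0.269 by limma.

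The FOXA pioneer factors differed in level, with FOXA2 far above FOXA1. FOXA2 read 27.5 and 24.7 FPKM in the Control pair, then 25.2 and 22.9 FPKM after knockdown, and the groups overlapped. Its log2 difference was -0.11, with a 95% interval of -0.30 to 0.08 and an adjusted p of 0.326 by limma. FOXA2 held 95.1% and 94.4% of the summed FOXA1 and FOXA2 FPKM in Control, and 97.4% and 96.7% in siSIRT1.

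FOXA1 fell to 50.9% of Control. It read 1.42 and 1.47 FPKM (about 44 and 45 reads) in the Control pair, then 0.68 and 0.79 FPKM (about 20 and 24 reads). The groups did not overlap. The log2 difference was -0.50 (SE 0.14), adjusted p 0.0224 by limma, on a scale that understates the change of weakly expressed genes. With a pseudocount of 0.1 it was -0.89. The call was lost without the first Control library (adjusted p 0.087), the second (0.114) or the first siSIRT1 library (0.0666), over a limma range of 0.0344 to 0.114 when 1 library was left out. Whether FOXA1 and FOXA2 differ in their change was not tested.

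GATA2 rose 2.38 times, and it was the 1 member that passed as higher. It read 6.15 and 5.91 FPKM in the Control pair, then 14.8 and 13.9 FPKM. Both siSIRT1 values were far above both Control values. Mean FPKM was 6.03 ± 0.17 against 14.4 ± 0.63 (SD, n = 2 each), on about 176 to 423 reads per library. The log2 difference was 1.13 (SE 0.09), adjusted p 7.11e-05 by limma. Its rank among the 16878 genes moved from 8017 to 4950.

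GATA6, the mark of classical tumors, was low in both groups. It read 0.90 and 0.89 FPKM in the Control pair, then 1.34 and 1.36 FPKM, on about 28 to 43 reads per library. The groups did not overlap. The log2 difference was 0.31, with a 95% interval of 0.0002 to 0.62 and an adjusted p of 0.107 by limma. Without the mean-variance trend it passed at 0.0278, and the range over the alternatives with all 4 libraries was 0.0278 to 0.173.

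Among the GATA genes, GATA3, GATA4 and GATA5 were at 8.09, 9.83 and 7.35 FPKM in Control, more than GATA2. None of the 3 passed, with log2 differences of -0.05, -0.10 and 0.06 and adjusted p-values of 0.735, 0.409 and 0.722 by limma. GATA1, the red cell factor, read 0.08 and 0.16 FPKM in the Control pair and was listed at 0 after knockdown. Its values stand for at most 2 estimated reads per library, under the floor of 3 reads used here. The summed GATA FPKM went from 31.6 and 33.0 to 40.4 and 40.02. GATA2 held 19.5% and 17.9% of it in Control and 36.6% and 34.8% in siSIRT1, while GATA6 held 2.85% and 2.70%, then 3.32% and 3.40%.

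**Figure D2:**
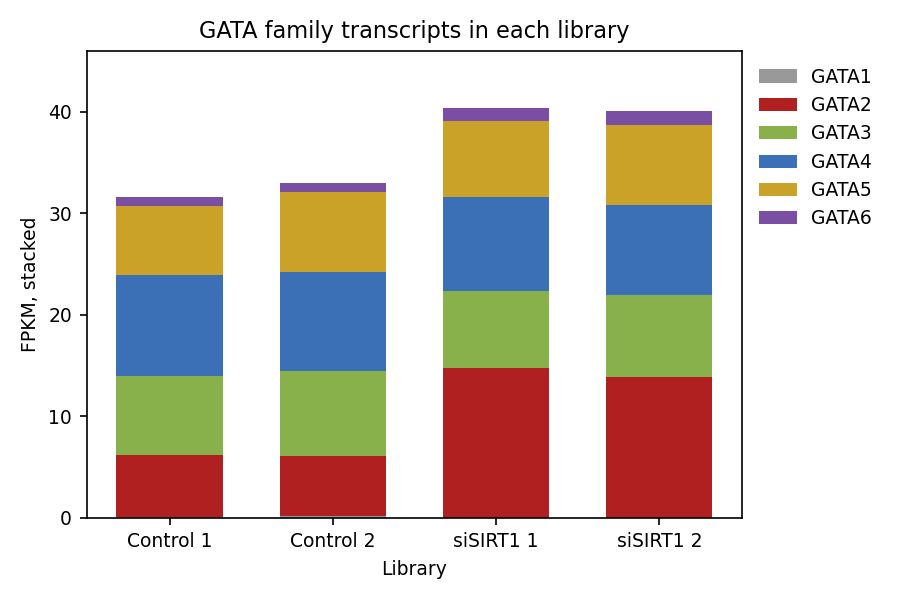
Stacked FPKM of the GATA genes in each of the 4 libraries. The GATA2 segment goes from 6.15 and 5.91 FPKM in the Control bars to 14.8 and 13.9 FPKM in the siSIRT1 bars.

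NR5A2 and PDX1 were the least abundant of the 9. NR5A2, a nuclear receptor, read 0.47 and 0.44 FPKM in the Control pair, then 0.18 and 0.27 FPKM, on about 21, 19, 8 and 12 reads. Both siSIRT1 values were below both Control values. Over the 40 and 19 estimated reads, added before rounding, siSIRT1 was 0.486 of Control, with an exact 95% counting interval of 0.266 to 0.860. The interval takes the estimates as exact counts and leaves out the spread between libraries, so it does not establish a fall. With no filter the adjusted p of NR5A2 was 0.0589 by limma.

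PDX1 read 0.09 FPKM in both Control libraries, about 2 reads each, then 0.19 and 0.37 FPKM, about 4 and 8 reads. The Control value is under the floor of 3 reads per library, which is 0.133 FPKM for this gene. Added before rounding, the estimated reads were 4 in Control and 13 in siSIRT1. Their ratio was 3.33, with an exact 95% counting interval of 1.03 to 14.01. The interval starts close to 1, takes the estimates as exact counts and leaves out the spread between libraries, so it does not establish a rise. With no filter the adjusted p was 0.128 by limma.

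**Figure D3:**
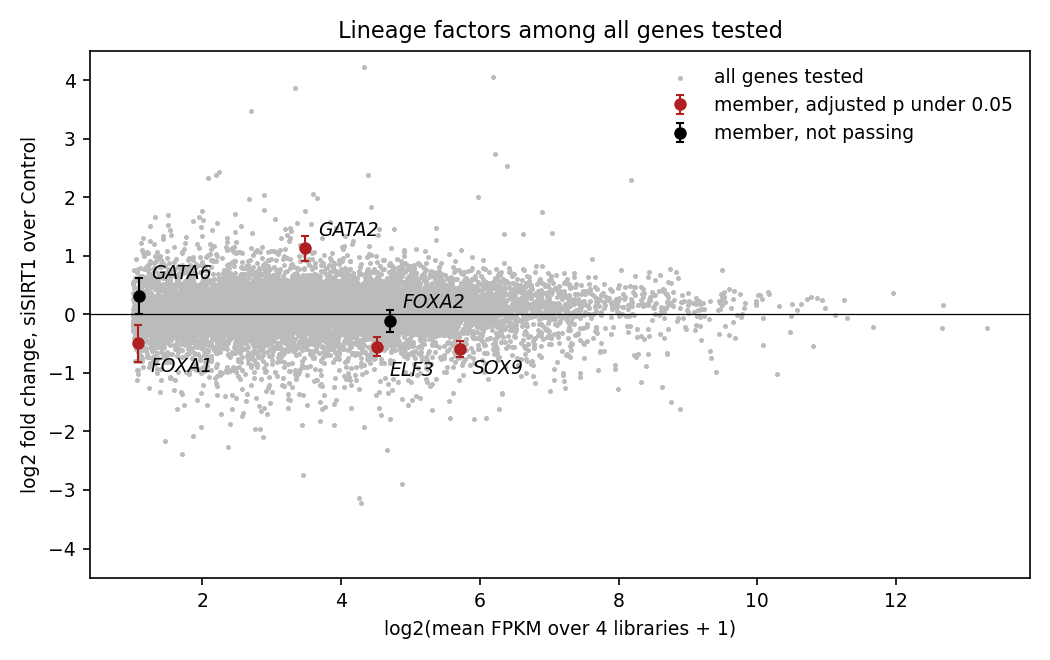
Log2 fold change of siSIRT1 over Control against log2(mean FPKM over 4 libraries + 1) for the 12191 genes tested (grey), with the 6 tested factors and their 95% limma intervals in red (adjusted p under 0.05) or black (not passing). GATA2 is at 1.13, SOX9, ELF3 and FOXA1 lie between -0.60 and -0.50, and the FOXA2 interval crosses 0.

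In siSIRT1 the order was SOX9 at 40.9, FOXA2 at 24.1, ELF3 at 17.5, GATA2 at 14.4, GATA6 at 1.35, FOXA1 at 0.735, KLF5 at 0.475, PDX1 at 0.28 and NR5A2 at 0.225 FPKM. PDX1 and NR5A2 were the 1 neighboring pair that overlapped. FOXA1 was above GATA6 in both Control libraries and below it in both siSIRT1 libraries.

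Most other transcription factors of pancreatic development were at or near 0 in PANC-1. Of a list of 30, 26 were listed, 4 were tested and 2 passed, with a median log2 difference of 0.02. HES1, a Notch effector that holds progenitors undifferentiated, rose from 14.6 and 14.4 FPKM to 26.8 and 23.5 FPKM (log2 difference 0.75, adjusted p 0.000315 by limma). TCF7L2, a Wnt effector, fell from 22.5 and 23.4 FPKM to 17.2 and 17.8 FPKM (log2 difference -0.37, adjusted p 0.0046), a call that was lost without the second Control library. HNF4A was listed at 0 in both Control libraries, and NEUROD1 and NKX2-2 were listed at 0 in all 4 libraries. The 4 not listed were NEUROG3, PAX4, PTF1A and RFX6, so nothing is said here of their levels.

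**Figure D4:**
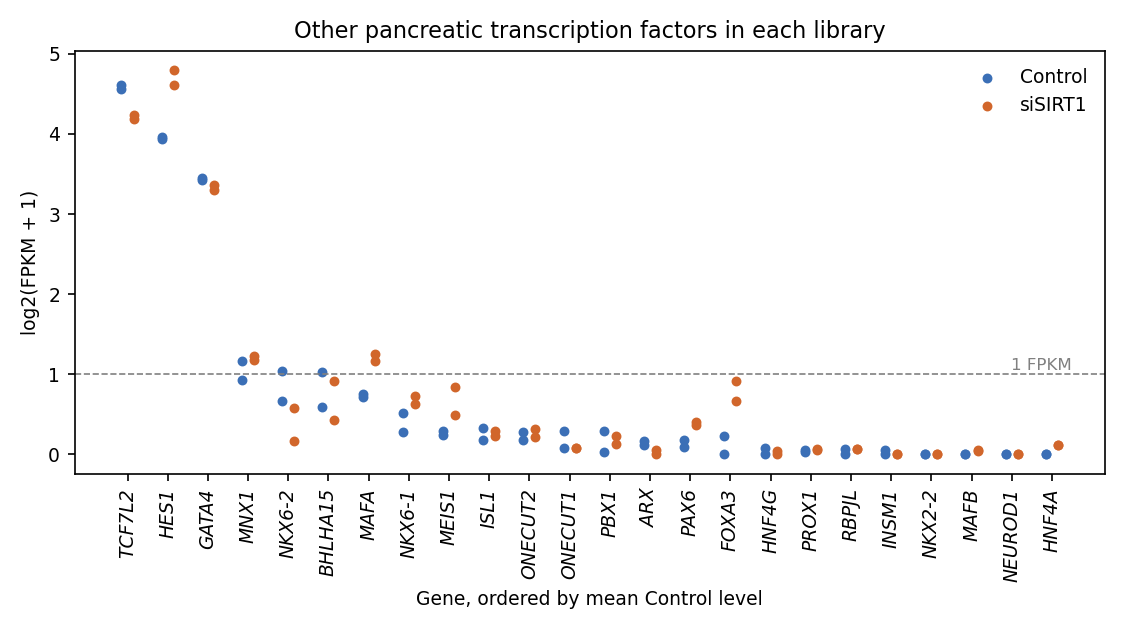
Log2(FPKM + 1) of 24 of the 26 other pancreatic factors in the 2 Control and 2 siSIRT1 libraries, ordered by mean Control level, with a dashed line at 1 FPKM. TCF7L2, HES1 and GATA4 stand well above the line in every library, and most others are near 0.

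With no filter on low values, FOXA3, MAFA and PAX6 also passed, which made 5 of 24 beside 21.5% of all genes; they are named after their values were seen. FOXA3, the remaining FOXA gene, read 0 and 0.17 FPKM in the Control pair, then 0.89 and 0.58 FPKM (log2 difference 0.68, adjusted p 0.0323 by limma). MAFA, a beta cell factor, read 0.69 and 0.64 FPKM, then 1.38 and 1.24 FPKM (log2 difference 0.47, adjusted p 0.024). PAX6, an endocrine factor, read 0.13 and 0.07 FPKM, then 0.32 and 0.29 FPKM (log2 difference 0.25, adjusted p 0.0413). These calls rest on few estimated reads, at most 14 for FOXA3, 31 for MAFA and 7 for PAX6 in any library.

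Among 28 genes of the members' own DNA-binding families, 19 were tested, of which 1 rose and 4 fell, with a median log2 difference of -0.10. SOX4, a SOX factor of progenitors, fell from 38.5 and 35.3 FPKM to 14.9 and 14.1 FPKM, or 39.4% of Control (log2 difference -1.29, adjusted p 1.44e-05 by limma). SOX12, at 42.1 and 37.1 FPKM in the Control pair and 36.4 and 32.4 FPKM after, did not pass as deposited (adjusted p 0.101), but passed as lower under each of the 4 scalings and with the replicate block (0.0178 to 0.209 over the fits of all 4 libraries). ELF4, an ETS factor like ELF3, rose from 19.1 and 18.9 FPKM to 29.2 and 30.5 FPKM (log2 difference 0.63, adjusted p 0.000295). KLF11 fell (log2 difference -0.54, adjusted p 0.0089), as did KLF2 (-0.72, 0.0171) and SP1 (-0.31, 0.02). Without the second Control library KLF11, KLF2 and SP1 did not pass, KLF2 did not without the second siSIRT1 library, and SP1 did not without the first library of either group. Both KLF2 and SP1 also failed with no filter on low values, and SP1 without the mean-variance trend. The epithelial ETS factors EHF and ELF5 read at most 0.13 and 0.12 FPKM.

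The genes most like each called member were found by the Euclidean distance of log2(FPKM + 1) over the 4 libraries, among 52 genes of these lists. ELF3 was nearest to TCF7L2 at 0.262 and SP1 at 0.432, and FOXA1 to SOX8 at 0.584 and MNX1 at 0.697. SOX9 was nearest to KLF6 at 0.935 and SOX12 at 0.989, and GATA2 to GATA4 at 1.23 and GATA5 at 1.24. The distance holds level as well as change, and KLF6, at 38.2 and 40.2 FPKM before and 38.8 and 42.1 FPKM after, did not pass in any setting and its sign changed with scaling.

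Cell type markers were read beside the factors. The keratins KRT8, KRT18 and KRT19 were abundant, at 2218, 1536 and 320 FPKM in Control, and KRT7, another duct keratin, was at 3.47 FPKM, while SPP1 and SLC4A4 of mature ducts were listed at 0 in all 4 libraries. The summed FPKM of the 14 listed ductal markers was 4293 to 4516 in Control and 4889 to 5290 in siSIRT1. Most of this sum is KRT8, KRT18 and KRT19, and KRT8 did not pass as deposited (log2 difference 0.25, adjusted p 0.0513 by limma). The FPKM of all genes also differed in sum, at 402197 and 397094 in the Control pair and 426279 and 408390 in the siSIRT1 pair. Of 9 tested, 4 rose and 1 fell. CLDN4, a tight junction claudin, fell from 232.4 and 232.5 FPKM to 119 and 112 FPKM (log2 difference -1.01, adjusted p 1.34e-05 by limma). TSPAN8, a tetraspanin, rose from 1.34 and 0.82 FPKM to 4.90 and 4.65 FPKM (1.48, 0.000204). KRT18 (0.26, 0.035) and KRT19 (0.25, 0.0178) passed as deposited. They did not pass after median-of-ratios or upper-quartile scaling, with no filter on low values, without the mean-variance trend or without either Control library. KRT8 failed in the same alternatives and passed in the others.

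Acinar markers were low, and endocrine markers were mixed. Of 11 listed acinar markers, GP2 was the 1 tested, at 2.96 FPKM in Control, and 0 passed by limma, also at an unadjusted p under 0.05. Their sum was 3.66 to 3.79 FPKM in Control and 4.21 to 4.27 FPKM in siSIRT1. Of 8 endocrine markers, CHGA, PCSK2 and PPY were listed at 0 in all 4 libraries, while IAPP, a beta cell hormone, read 5.11 and 6.49 FPKM and CHGB, a granule protein, 4.06 and 3.75 FPKM in the Control pair, and neither passed. SCG2, another granule protein, fell from 1.55 and 1.89 FPKM to 0.98 and 0.32 FPKM (log2 difference -0.75, adjusted p 0.0191 by limma). The call was lost with no filter on low values and without the second library of either group. SCG2 passed the filter only through Control, at a mean of 1.72 FPKM against 0.65 FPKM in siSIRT1. The endocrine sum was 10.7 to 12.2 FPKM in Control and 8.58 to 11.2 FPKM in siSIRT1.

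Because GATA2 is known from blood and endothelial cells, their markers were read as well. Of 10 listed, KDR, CDH5, PECAM1, VWF, TAL1 and LYL1 were under 1 FPKM in every library and HBB was listed at 0. PTPRC, a marker of all leukocytes, read 1.21 and 1.22 FPKM in the Control pair, then 0.97 and 1.29 FPKM, and did not pass. The sum was 64.0 to 65.9 FPKM in Control and 41.8 to 45.3 FPKM in siSIRT1, and without CD68 it was 2.98 and 3.23 FPKM, then 2.94 and 2.74 FPKM. CD68, a lysosomal protein of macrophages, fell from 62.96 and 60.8 FPKM to 42.3 and 39.1 FPKM. Of 8 fibroblast markers, DCN, LUM, FAP and COL1A2 were at most 0.10 FPKM, but the sum was 7.57 to 9.03 FPKM in Control and 27.9 to 28.3 FPKM in siSIRT1. COL3A1 rose from 4.08 and 4.04 FPKM to 18.9 and 19.4 FPKM and THY1 from 4.09 and 2.81 FPKM to 8.71 and 8.07 FPKM. The part of these markers in the lineage factor results was not tested. All 4 libraries were of the PANC-1 line, so the markers were read as its transcripts, not as counts of other cell types. Bulk RNA cannot tell a change in all cells of the line from a change in some of them.

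Of 24 genes of the classical tumor subtype, which GATA6 marks, 18 were listed, 5 were tested and TSPAN8 was the 1 that passed, with a median log2 difference of 0.09. AGR2, a secretory pathway protein, read 171 and 160 FPKM in the Control pair, then 180 and 172 FPKM, and did not pass (adjusted p 0.287 by limma). Of 24 basal-like genes, 8 were tested, of which 2 rose and 4 fell, with a median of -0.23. KRT15, a basal keratin, fell from 9.79 and 11.9 FPKM to 1.90 and 1.65 FPKM (log2 difference -2.09, adjusted p 1.79e-05). AREG, a ligand of the EGF receptor, fell from 8.24 and 7.96 FPKM to 2.29 and 2.22 FPKM (-1.48, 4.47e-05). DHRS9, a retinol dehydrogenase, rose from 0.72 and 1.03 FPKM to 2.97 and 3.29 FPKM (1.14, 0.00053). It passed the filter only through siSIRT1, as its Control mean was 0.875 FPKM. TNS4, another of the 4 that fell, passed it only through Control, at 1.76 FPKM against 0.595 FPKM in siSIRT1. SLC2A1, the basal-like gene highest in Control, fell from 25.61 and 23.35 FPKM to 19.48 and 18.19 FPKM (-0.36, 0.0081 by limma). Its call was lost without the first Control library.

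Of 11 listed mesenchymal transcription factors, 6 were tested and 2 rose, with a median log2 difference of 0.13. GLI2, a Hedgehog effector, rose from 4.34 and 4.02 FPKM to 7.99 and 7.89 FPKM (log2 difference 0.79, adjusted p 0.000746 by limma). FOXC1 passed at 0.0466 (log2 difference 0.43) but failed in 9 of the alternatives, which include the 4 scalings and leaving out either Control library or the first siSIRT1 library. SNAI1 and ZEB1, at 7.85 and 4.62 FPKM in Control, did not pass. FOXC2, at 13.2 FPKM in Control and 11.2 FPKM after knockdown, did not pass as deposited but passed as lower under each of the 4 scalings (adjusted p down to 0.0276 by limma, up to 0.0966 in other fits of all 4 libraries), where GLI2 and FOXC2 were the calls in place of GLI2 and FOXC1.

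**Figure D5:**
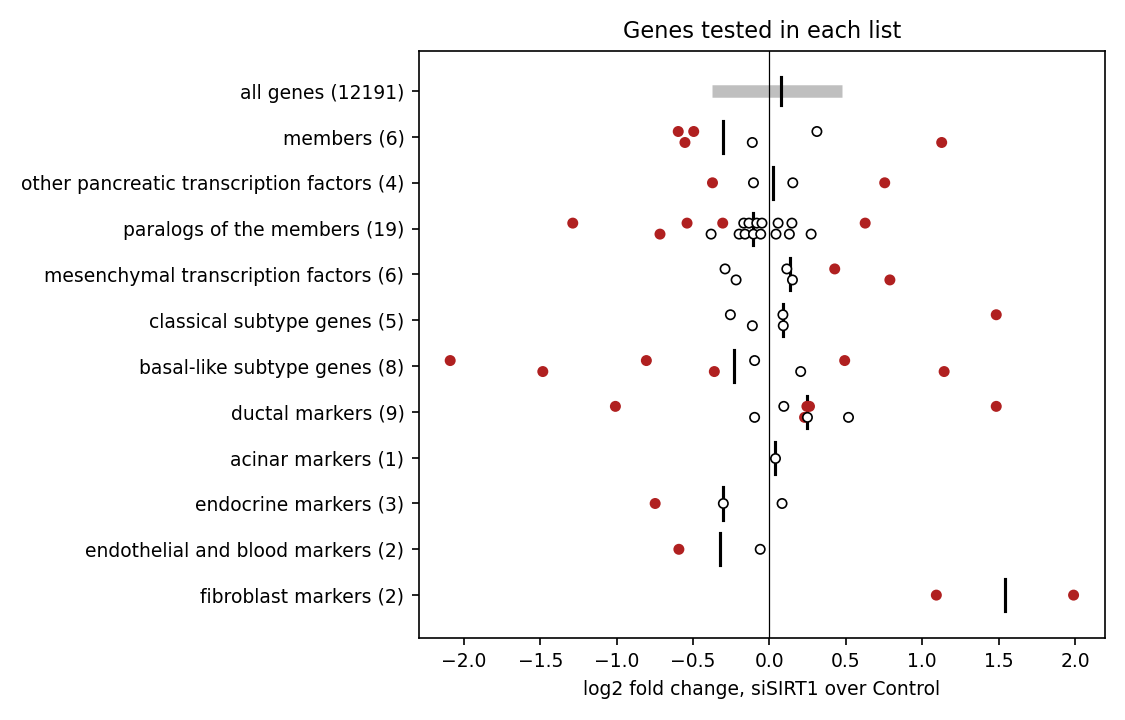
Log2 fold change of siSIRT1 over Control for the genes tested in each list (number tested in brackets), filled red where the adjusted p was under 0.05 and open where it was not, with a black tick at each median and a grey bar from percentile 10 to percentile 90 of all 12191 genes. Of the 6 members, 3 red points lie between -0.60 and -0.50 and 1 at 1.13, and the 8 basal-like genes range from -2.09 to 1.14.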

How the data were processed

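For each of the 4 libraries the authors deposited FPKM values of 16878 genes, rounded to 2 decimals. The submitters' processing notes list HISAT, Bowtie2, RSEM and ChIPseeker without roles or versions. The RNA-seq build, the filters and the use of strand are not given in the sources used here. Differences were tested with limma 3.58.1 (R 4.3.3; Python 3.11.15 elsewhere), on log2(FPKM + 1) with a trend of variance on level, keeping the 12191 genes whose mean over the 4 libraries reached 1 FPKM. Tests were two-sided, with Benjamini-Hochberg adjustment over all genes kept, and the fit was tested on simulated data. Depth was estimated from the steps that 1 read makes in the values of single-exon genes, out of 508 candidates. Reads per gene use GENCODE canonical transcript lengths and are only estimates for genes with more than 1 isoform. Counting intervals and the floor of 3 reads cover counting error only.

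The members and lists were chosen with earlier results of these data known. Named were SIRT1, the members, the 2 nearest genes of each called member and, in each list, up to 4 called genes of largest change and up to 3 of highest Control level. LYZ, TFF1, CEL, SPINK1 and ACTA2 met this rule by their Control level but are not described above. Genes named for being low, other GATA genes and those from the fit without a filter were chosen after their values were seen. Values of 2 genes among the other pancreatic factors are not reported here. Alternatives were a pseudocount of 0.1, no filter, 4 scalings, a replicate block, no trend and leaving out each library.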

Additional observations from a re-analysis of the deposited data

How the results depend on the processing

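SOX9, ELF3, GATA2 and SIRT1 kept their direction and passed by limma in every alternative run, and FOXA2 passed in none. FOXA1 did not pass without either Control library or the first siSIRT1 library (log2 difference -0.54 to -0.45 over the 4 fits that left out 1 library), so 3 to 4 members passed in those fits. GATA6 passed without the mean-variance trend, at the same 0.31, which made 5 members. A pseudocount of 0.1 gave 0.96 for PDX1, -0.48 for KLF5 and -0.79 for NR5A2, against 0.23, -0.21 and -0.25. Leaving out 1 library, PDX1 ran from 0.13 (without the second siSIRT1 library) to 0.33 (without the first), KLF5 from -0.35 (without the second Control library) to -0.07 (without the first), NR5A2 from -0.30 to -0.20 and FOXA2 from -0.19 (without the second Control library) to -0.04 (without the first). Quantile normalization, the block and the fit without trend gave no value for PDX1, KLF5 and NR5A2, which were under the filter.

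Same-numbered libraries deviated together with a correlation of 0.123, over 2 pairs only, which does not make them pairs. With the replicate block 5393 genes passed in place of 4521, 4 members as before, and 8 family genes in place of 5. Median-of-ratios and upper-quartile scaling also gave 8 family genes, and they and the fit without trend gave 2 ductal markers in place of 5. With no filter 5 other pancreatic factors passed in place of 2, and 0 endocrine markers in place of 1. A pseudocount of 0.1 gave 1 mesenchymal factor in place of 2. Leaving out 1 library gave 2691 to 4608 genes (2744 and 2691 without the first and second Control library), 1 to 2 other pancreatic factors, 2 to 4 family genes and 0 to 1 endocrine markers, each lowest without the second Control library, and 1 to 2 mesenchymal factors and 2 to 6 ductal markers, lowest without the first (mesenchymal also without the second or the first siSIRT1 library, endocrine also without the second siSIRT1 library). The causes were not tested. Depth limits PDX1, NR5A2 and KLF5, at 2 to 26 reads per library.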
